A study of Mus musculus with 12 samples.

Results

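The comparison concerns 2 p53-knockout lines of mouse embryonic stem cells, line 13 and line 46, which carry the same genotype name and were handled in the same way. Membership followed the line number in the count columns, which gave 4 of the 12 libraries of the series: line 13 after doxorubicin, line 13 after vehicle, line 46 after doxorubicin and line 46 after vehicle. All were E14 cells, an embryonic stem cell line kept undifferentiated on gelatin with the cytokine LIF and inhibitors of MEK and GSK3 (2i). Drug-treated cells had 1 uM doxorubicin for 6 h and then drug-free medium, and vehicle cells had DMSO for 6 h followed by the same change of medium. The remaining libraries, used to set the spread and the level, were Dux knockout lines 36 and 39 and wild-type cells, each with and without the drug. Which part of Trp53 was edited in either line is not stated in the labels. Each line gave 1 library per treatment, and both wild-type replicates bear the name of 1 line, so p-values measure only the spread between these libraries.

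p53, made by Trp53, is a transcription factor that is stabilised when DNA is broken. It switches on genes that stop the cell cycle, repair DNA, kill the cell or, as with Mdm2, restrain p53 itself. Doxorubicin poisons topoisomerase II and leaves DNA breaks. Dux, counted here as Duxf3, is a transcription factor of the 2-cell embryo that turns on a set of genes, Zscan4 among them, which are otherwise almost silent in embryonic stem cells.

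Poly(A) RNA was counted per gene. Total counts ran from 23270358 to 32807053 in the 4 p53-knockout libraries and up to 56795858 in the series. The count column of 1 Dux knockout vehicle library (line 39) repeats that of line 36 after doxorubicin in all 54532 genes and was left out, so 11 libraries entered the tests. Levels are CPM, counts scaled to a common library size. Calls are at 0.05 of the adjusted p from edgeR's quasi-likelihood test over 28643 genes. Differences are log2 of line 13 over line 46, with the standard error (SE). The 26 genes of naive pluripotency summed to 4600 and 6990 CPM in line 13 after doxorubicin and after vehicle, and to 4040 and 6970 CPM in line 46, against 2200 CPM in wild-type doxorubicin libraries and 7440 to 7550 CPM in wild-type vehicle libraries. Fibroblast genes summed to 757 to 1650 CPM, most of it the fibronectin gene Fn1, while the fibroblast collagen Col1a1 did not pass 2.71 CPM in any of the 4 libraries. Because these are bulk samples, fewer cells of a type and less RNA per cell cannot be told apart.

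The lines differed widely. With treatment as a block, 4417 genes (15.4% of those tested) were higher and 2759 (9.63%) lower in line 13, and 1543 and 1038 of these differed more than 2-fold. Without the line 13 doxorubicin library the total of 7176 fell to 4370, and without the line 46 doxorubicin library to 4517, as the contrast then rests on the vehicle pair. Under doxorubicin alone 3802 genes (13.3%) were higher and 1758 (6.14%) lower in line 13, and under vehicle alone 2564 (8.95%) were higher and 1843 (6.43%) lower. The 2 Dux knockout lines, tested in the same fit and sequenced more deeply, differed under doxorubicin at 24 genes higher (0.0838%) and 88 lower (0.307%) in line 36. The 4 contrasts had all-gene medians of 0.02, 0.04, 0 and 0.01 on the log2 scale.

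Both lines held RNA of the targeted gene, line 13 more than line 46. Trp53 (chromosome 11, mm10 69580359 to 69591873) stood at 95.5 CPM after doxorubicin and 72.4 CPM after vehicle in line 13, against 42.6 and 39.8 CPM in line 46. Wild-type cells held 135 and 133 CPM after doxorubicin and 193 and 159 CPM after vehicle. Both line 13 libraries lay above both line 46 libraries, as they did for 20.1% of all genes, and all 4 lay below all wild-type libraries. The line difference was 1.01 ± 0.12 (SE; adjusted p = 7.5e-05), and it was 1.16 under doxorubicin (adjusted p = 0.00029) and 0.86 under vehicle (adjusted p = 0.0022).

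Set against the wild-type mean of the same treatment, line 13 kept 71.3% of Trp53 RNA after doxorubicin and 41.1% after vehicle, and line 46 kept 31.8% and 22.6%. The doxorubicin response of Trp53 was 0.40 in line 13 (adjusted p = 0.057) and 0.10 in line 46 (adjusted p = 0.66), and the difference between those responses was 0.30 ± 0.20 (SE; adjusted p = 0.65). Deposited counts are 1 value per gene, so they do not show which exons the residual RNA holds or whether it makes protein. The window of 50 expressed genes that holds Trp53 (69299487 to 70410031) was itself higher in line 13, with gene medians of 0.32 after doxorubicin and 0.12 after vehicle (limma 0.22, adjusted p = 0.026). Wrap53, which starts next to Trp53 on the other strand and is named after its values were seen, had 55.4 and 61.8 CPM in line 13 and 57.6 and 69.0 CPM in line 46 (-0.11 ± 0.10 SE, adjusted p = 0.47; -0.33, adjusted p = 0.023, with the shift of its window taken out), while Atp1b2, a sodium pump subunit, was lower in line 13 (-0.52 ± 0.11 SE, adjusted p = 0.0044). Sat2, an acetyltransferase gene a little further along, was lower too (-1.16 ± 0.26 SE, adjusted p = 0.0059). Of the 9 genes in this set of p53 relatives and neighbours, 1 was higher and 2 were lower in line 13. Over all genes 15.4% were higher and 9.63% lower, so counts this small do not set the group apart. The p53 relative Trp73 was not called (0.45, adjusted p = 0.21).

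**Figure D1:**
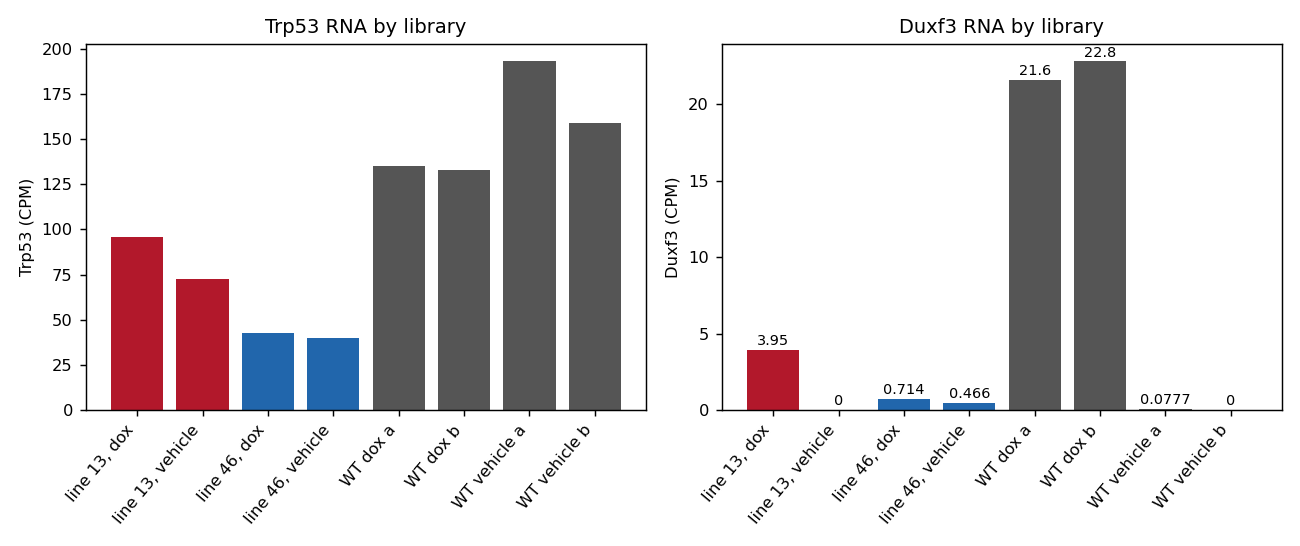
Trp53 (left) and Duxf3 (right) in CPM, 1 bar per library, for line 13, line 46 and wild-type cells after doxorubicin (dox) or vehicle. Trp53 is higher in both line 13 libraries than in both line 46 libraries, and Duxf3 reaches 3.95 CPM in line 13 after doxorubicin against 0.714 CPM in line 46.

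Most listed genes that p53 is known to activate were higher in line 13 than in line 46, and both lines mostly stayed below drug-treated wild-type cells. The list was drawn up with earlier results of these data known, so its shares are description only. Of 48 p53 target genes, all tested, 34 were higher in line 13 and 1, Sesn1, was lower, where 15.4% and 9.63% of all genes were. Their median difference was 0.59, against 0.02 over all genes. Both line 13 libraries lay above both line 46 libraries for 26 of the 48, where 20.1% of all genes did so. Under doxorubicin 35 were higher and 2 (Sesn1 and Ddit4) lower, with a median of 0.89, where 13.3% and 6.14% of all genes were. Under vehicle 20 were higher and 1 (Fbxw7) lower, with a median of 0.41, where 8.95% and 6.43% of all genes were. Their summed level was 2100 CPM after doxorubicin and 2140 CPM after vehicle in line 13, 1310 and 1680 CPM in line 46, and 9860 CPM in both wild-type doxorubicin libraries. The median target after doxorubicin stood at 21.2% of the wild-type mean in line 13 and at 13.7% in line 46. After doxorubicin 42 of the 48 in line 13, and 44 in line 46, were below both wild-type libraries. The share of all genes below both was not computed, so these 2 counts describe levels and do not set the targets apart.

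**Figure D2:**
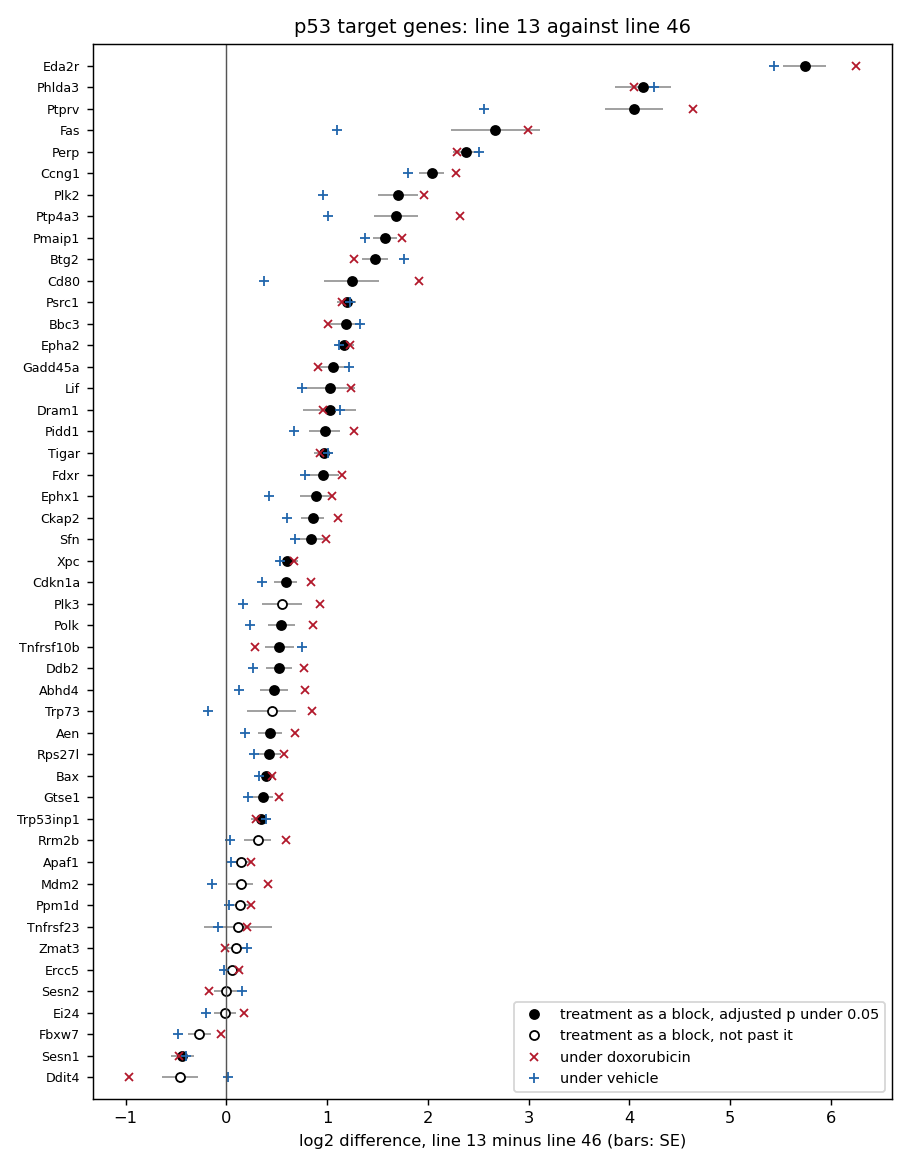
Log2 difference, line 13 minus line 46, for each of 48 p53 target genes: circles give the fit with treatment as a block with its SE, filled where adjusted p was under 0.05, crosses the difference under doxorubicin and plus signs that under vehicle. Most genes lie right of 0, from Eda2r at 5.74 down to Cdkn1a at 0.59 and Bax at 0.39, and Sesn1 at -0.44 is the filled circle on the left.

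By role, a grouping made after the values were seen, the receptors and surface proteins had 6 of 7 members higher in line 13. Over all genes 15.4% were higher and 9.63% lower, which also holds beside the roles that follow. Differences between roles were not tested. Eda2r, a receptor of the tumour necrosis factor family, had 8.43 and 10.3 CPM in line 13 after doxorubicin and vehicle, against 0.107 and 0.233 CPM in line 46, with 160 to 172 CPM in wild-type cells after doxorubicin. The line difference was 5.74 ± 0.21 (SE; adjusted p = 2e-08), and line 13 still held only 5.08% of the wild-type doxorubicin level. Fas, the death receptor, had 1.73 and 0.146 CPM in line 13 and 0.214 and 0.0666 CPM in line 46 (2.67 ± 0.44 SE, adjusted p = 0.00092), and its vehicle values are near the limit of counting. The co-stimulator Cd80 (1.24) and the ephrin receptor Epha2 (1.17) were also higher, and Tnfrsf23, a decoy receptor, was not called (0.11).

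Death genes had 8 of 10 members higher. Phlda3, which holds back Akt signalling, had 7.14 and 5.12 CPM in line 13 after doxorubicin and vehicle, against 0.428 and 0.266 CPM in line 46 (4.13 ± 0.28 SE, adjusted p = 1.8e-06). Perp, a membrane protein of p53-dependent death, had 15.4 and 8.33 CPM in line 13 and 3.14 and 1.46 CPM in line 46 (2.38 ± 0.14 SE, adjusted p = 5.1e-07). For both genes the lines did not overlap, with line 13 higher, as was so for 20.1% of all genes. The BH3-only killers Pmaip1 (1.57) and Bbc3 (1.18) and the pore-forming Bax (0.39) were higher too, and Apaf1 (0.15) and Ei24 (-0.01) were not called.

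Arrest genes had 9 of 11 members higher. Cdkn1a, the inhibitor p21 that stops the cell cycle, had 47.0 and 76.3 CPM in line 13 after doxorubicin and vehicle, against 26.2 and 59.9 CPM in line 46, so the drug-treated line 13 library lay below the vehicle-treated line 46 library. Its line difference was 0.59 ± 0.11 (SE; adjusted p = 0.0025). In both lines Cdkn1a was lower after the drug, by -0.70 in line 13 (adjusted p = 0.0013) and -1.19 in line 46 (adjusted p = 6.8e-05), where wild-type cells held 188 and 186 CPM after doxorubicin and 78.8 and 78.7 CPM after vehicle. Ptprv, which in mouse is a p53-induced phosphatase gene and is annotated here as a processed transcript, differed most (4.04), followed by the kinase gene Plk2 (1.70), the anti-proliferative Btg2 (1.47), the spindle gene Psrc1 (1.19) and Gadd45a (1.06). Zmat3 (0.10, adjusted p = 0.55) and Plk3 (0.55, adjusted p = 0.058) were not called. With the window shift described below taken out Zmat3 was called (0.53, adjusted p = 0.0095) and Plk3 was not (0.38, adjusted p = 0.17).

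Feedback genes divided evenly, with 4 of 8 higher and none lower. Ccng1, whose cyclin G1 protein acts on Mdm2 through a phosphatase, had 78.5 and 70.6 CPM in line 13 after doxorubicin and vehicle, against 16.2 and 20.2 CPM in line 46 (2.04 ± 0.12 SE, adjusted p = 7.6e-07). Mdm2 itself, the ligase that degrades p53, had 69.8 and 44.7 CPM in line 13 and 52.4 and 49.2 CPM in line 46, so the lines overlapped and the difference of 0.14 ± 0.13 (SE) was not called (adjusted p = 0.47). Ppm1d, the phosphatase Wip1, was not called either (0.14, adjusted p = 0.38). Ptp4a3, a phosphatase gene, was the 1 target whose response differed between the lines. It had 45.8 CPM after doxorubicin and 18.5 CPM after vehicle in line 13, against 9.17 and 9.22 CPM in line 46, a difference of responses of 1.32 ± 0.19 (SE; adjusted p = 0.026). Only 0.154% of all genes had a response called higher in line 13.

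Among metabolism and repair genes 7 of 12 were higher and 1 lower. Tigar, which lowers glycolytic flux, had 150 and 147 CPM in line 13 and 79.0 and 73.5 CPM in line 46 (0.96 ± 0.09 SE, adjusted p = 2.6e-05). Sesn1, a stress-induced inhibitor of mTORC1 signalling, was the reverse, with 23.2 CPM in both line 13 libraries and 32.2 and 30.8 CPM in line 46 (-0.44 ± 0.11 SE, adjusted p = 0.014). Sesn2 (-0.01) and Ercc5 (0.05) were not called. With the window shift taken out Ercc5 was called (0.40, adjusted p = 0.015) and Sesn2 was not (-0.07, adjusted p = 0.75). The responses to doxorubicin itself had 22 targets higher and 6 lower in line 13, where 14.9% and 11.3% of all genes were, and 11 higher and 8 lower in line 46, where 13.2% and 14.3% of all genes were.

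Promoter sequence was read from RefSeq for GRCm38.p6, 250 bases before to 50 after the gene start, and 38 of the 48 targets had an entry. A p53 site is built from half-sites around a 4-letter core, CATG or a form of it with A or T at either middle letter. Pairs of such cores with 6 letters between them, a set that reads the same on both strands, were present in 9 of the 38 (Aen, Bbc3, Cdkn1a, Ckap2, Gtse1, Plk2, Rps27l, Sfn and Tigar) and in 7.22% of all 32851 promoters. All 9 genes were among the 26 with an entry that were higher in line 13. This was 1 of 5 forms tried on these promoters, and it was chosen after its matches were seen. With CATG on both sides 1 target matched (0.712% of all promoters), with CATG on at least 1 side 3 (3.05%), with CATG on 1 side and CTTG on the other, or the reverse complement, 1 (0.95%), and the full p53 consensus pair with no letters between matched none (0.00913%). The stretches below, shown because their genes are described here, have the cores in capitals and run 5′ to 3′ in the direction of the gene.
Cdkn1a, chr17:29090911-29090964, plus strand: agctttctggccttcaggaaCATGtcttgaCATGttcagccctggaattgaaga
Bbc3, chr7:16309469-16309522, plus strand: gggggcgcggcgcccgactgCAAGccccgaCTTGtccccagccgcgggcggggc
Tigar, chr6:127109729-127109782, minus strand: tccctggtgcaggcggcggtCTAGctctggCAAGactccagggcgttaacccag
Ckap2, chr8:22185986-22186039, minus strand: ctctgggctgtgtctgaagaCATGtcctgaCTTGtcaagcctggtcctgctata
Ckap2, a gene for a spindle protein, had 145 and 161 CPM in line 13 after doxorubicin and vehicle, against 67.4 and 106 CPM in line 46 (0.86 ± 0.12 SE, adjusted p = 0.00025). It lies on chromosome 8, and with the window shift described below taken out it was not called (0.33, adjusted p = 0.082).

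Duxf3 (chromosome 10, mm10 58229979 to 58232675) responded to doxorubicin in line 13. Its level was 3.95 CPM after doxorubicin and 0 after vehicle in line 13, against 0.714 and 0.466 CPM in line 46, which rest on 114, 0, 20 and 14 counts. Wild-type cells had 21.6 and 22.8 CPM after doxorubicin, and 0.0777 and 0 CPM after vehicle. Line 13 was thus the highest p53-knockout library after the drug and the lowest after vehicle.

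Against a floor of 3 counts per library, Duxf3 was 36.1-fold higher after doxorubicin than after vehicle in line 13. In line 46 it was 1.53-fold higher, on 20 and 14 counts. Counts are not independent reads, so folds against the floor are not strict bounds. After doxorubicin line 13 held 5.54 times the level of line 46 (log2 2.46, adjusted p = 0.0023), which is 17.8% of the wild-type mean where line 46 held 3.22%. After vehicle line 13, set at that floor, was 4.25-fold lower than line 46, which rests on 0 and 14 counts. The difference between the responses was called (adjusted p = 0.039), and with the floor it came to 4.56 on the log2 scale. That call was lost without wild-type vehicle library a (adjusted p = 0.071) or b (adjusted p = 0.078), and also with no filter on low counts (adjusted p = 0.45). Dux lies in a repeat of near-identical copies, so how its reads were shared out is uncertain.

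Most listed genes of the 2-cell stage were higher in line 13 than in line 46 after doxorubicin, and few differed after vehicle. These lists too were drawn up with earlier results of these data known, so their shares are description only. Of 41 such genes in multigene families, 28 were higher in line 13 under doxorubicin and 1, Obox6, was lower, with a median of 1.87 against 0.04 over all genes, of which 13.3% were higher and 6.14% lower. Under vehicle 1 (Pramef12) was higher and 2 (Duxf3 and Obox6) lower, with a median of 0.13, where 8.95% and 6.43% of all genes were. In line 13, doxorubicin against vehicle, 26 of the 41 were higher after the drug and 1, Eif1a, was lower, where 14.9% and 11.3% of all genes were. In line 46 the same contrast had 1 of the 41, Pramef12, higher and 7 lower after the drug, where 13.2% and 14.3% of all genes were, so the 7 are a share near that of all genes. With every level held at or above 3 counts, the median response was 1.51 in line 13 and -0.31 in line 46. Medians over all genes, fitted without that floor, were 0.15 and 0.10. Of the 41, 10 had at least 1 of the 4 libraries at or under 3 counts, and 6 had 1 or more at 0. Tdpoz2 was at 0 in all 4 and passed the count filter only through other libraries. Where both libraries of a line are at the floor, the response reflects library size alone, and such genes count in these medians.

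The difference of responses was called higher in line 13 for 8 of the 41: Duxf3, 4 Zscan4 genes (Zscan4c, Zscan4d, Zscan4e and Zscan4f), Usp17la, Usp17lb and Gm5662. Over all genes 0.154% had that call. These calls are fragile: with the window shift described below taken out 1 of the 41 was called, and with no low-count filter 0 genes were. Zscan4c, a DNA-binding protein gene active in the 2-cell embryo, had 18.7 CPM after doxorubicin and 9.61 CPM after vehicle in line 13, against 5.78 and 8.82 CPM in line 46. Zscan4f had 21.2 and 7.09 CPM in line 13, against 6.03 and 8.86 CPM in line 46, with a difference of responses of 2.13 ± 0.28 (SE; adjusted p = 0.024). In both genes the doxorubicin library of line 13 was the highest of the 4 and that of line 46 the lowest. Usp17lb, of a family of deubiquitinases, had 8.74 and 1.83 CPM in line 13, against 1.39 and 3.56 CPM in line 46, and its responses differed by 3.61 ± 0.52 (SE; adjusted p = 0.026).

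These levels remained far below those of wild-type cells after the drug, where Zscan4c had 449 and 543 CPM. The median family gene after doxorubicin was at 6.01% of the wild-type mean in line 13 and at 1.20% in line 46. In lines 13 and 46, 38 and 39 of the 41 lay below both wild-type libraries, and the share of all genes that did so was not computed. After vehicle Zscan4c had 9.61 CPM in line 13 and 8.82 CPM in line 46, against 1.17 and 1.50 CPM in wild-type cells.

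Copies in these families are nearly identical, so a value for 1 copy may hold reads of another. Over the 250 bases before the gene start, Zscan4c and Zscan4f matched at 90.4% of bases, and Usp17la and Usp17lb at 81.6%. Of 7 Dux-type forms tried on both strands, TGATT followed by ATCA after 2 letters was found in 5 of the 25 promoters of 2-cell genes with a RefSeq entry, those of Zscan4b, Zscan4c, Zscan4d, Zscan4f and Abcb5, and in 0.207% of all promoters. It was chosen after its matches were seen. TGATT alone, which lies inside it, was in 13 of the 25 and in 37.0% of all promoters. The other 5 forms matched none of the 25 and 0.00609% to 0.265% of all promoters: TGATT then AATCA after 1 letter, TAAT then AATTA after 2, TAAT then GATTA after 2, TAATC then AATCA after 1, and TAATCT directly before AATCA. The stretches are printed to show how alike the copies are, with the match in capitals. In the Zscan4 copies it lies on the strand opposite to the gene, so the printed letters are its reverse complement.
Zscan4c, chr7:11005611-11005661, plus strand: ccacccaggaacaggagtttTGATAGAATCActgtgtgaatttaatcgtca
Zscan4f, chr7:11397804-11397854, plus strand: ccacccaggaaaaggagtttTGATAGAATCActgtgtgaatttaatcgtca
Abcb5, chr12:118966467-118966517, minus strand: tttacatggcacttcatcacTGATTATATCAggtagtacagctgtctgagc

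Another 12 genes of the 2-cell stage lie outside such families. Under doxorubicin 7 were higher in line 13 and none lower (median 2.02), where 13.3% and 6.14% of all genes were. Under vehicle none was called in either direction (median 0.44), where 8.95% of all genes were higher and 6.43% lower. In line 13 the drug raised 10 of the 12, and in line 46 it raised 1, Nat8f2, where it raised 14.9% and 13.2% of all genes. The 1 in line 46 is thus a share near that of all genes. Floored median responses were 2.03 in line 13 and 0.41 in line 46, and 2 of the 12 had a library at or under 3 counts. Tmem92, a membrane protein gene, had 13.4 CPM after doxorubicin and 1.28 CPM after vehicle in line 13, against 1.57 and 1.27 CPM in line 46. Only the doxorubicin library of line 13 stood out, and the responses differed by 3.07 ± 0.37 (SE; adjusted p = 0.02). Tmem92 was the 1 gene of the 12 with a response called higher in line 13, where 0.154% of all genes had that call. Abcb5, a transporter gene, had 4.79 and 0.877 CPM in line 13, against 0.571 and 0.666 CPM in line 46 (difference of responses 2.66 ± 0.65 SE, adjusted p = 0.20). After doxorubicin the median of the 12 was 7.11% of the wild-type mean in line 13 and 1.43% in line 46.

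**Figure D3:**
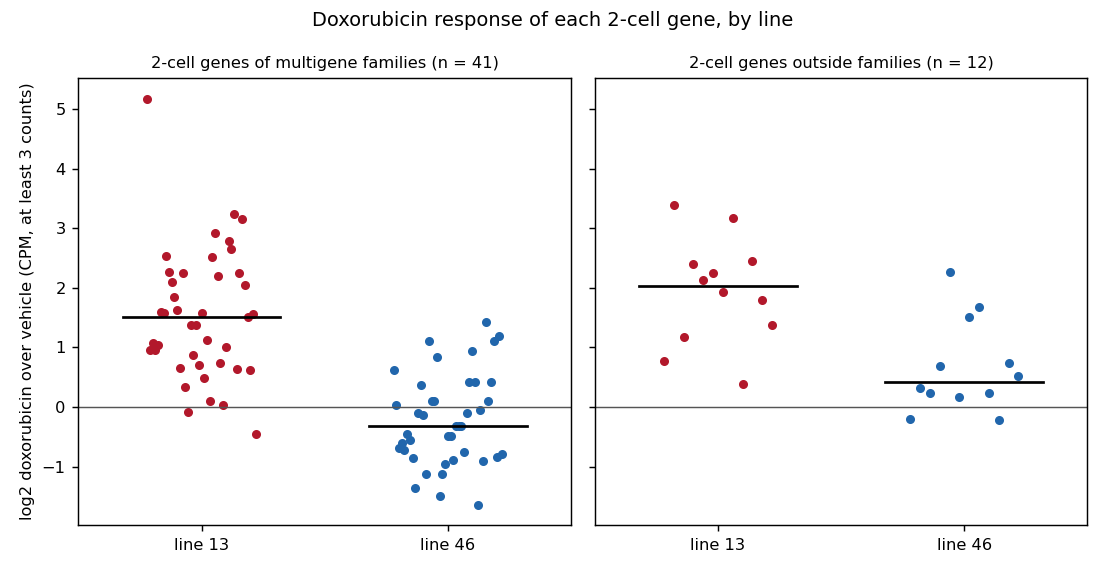
Log2 ratio of doxorubicin to vehicle CPM for each 2-cell gene in line 13 and line 46, with levels under 3 counts set to 3, for 41 genes of multigene families (left) and 12 outside them (right); bars are medians. The family medians are 1.51 in line 13 and -0.31 in line 46, and the medians outside families are 2.03 and 0.41. Of the genes drawn, 10 in families and 2 outside them have at least 1 library at or under 3 counts.

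Over all genes the doxorubicin response was called higher in line 13 for 44 (0.154%) and lower for 7 (0.0244%). That count rests on the wild-type pairs, which set the spread. It was 9 without wild-type vehicle library a, 0 without vehicle library b, 129 without doxorubicin library a and 143 without doxorubicin library b. Genes with a lower response in line 13 included Lama5, a basement membrane laminin, with 411 and 221 CPM in line 13 after doxorubicin and vehicle, against 278 and 60.5 CPM in line 46 (difference of responses -1.31 ± 0.17 SE, adjusted p = 0.024). Col4a1, a basement membrane collagen, had 40.9 and 32.7 CPM in line 13, against 35.5 and 8.66 CPM in line 46 (-1.72 ± 0.21 SE, adjusted p = 0.02). In both genes the vehicle library of line 46 was the lowest by far. Of 22 listed regulators of Dux 3 were higher in line 13 and 1 was lower (median -0.14), shares at or below the 15.4% and 9.63% of all genes. Dppa2 and Dppa4, which act as a pair to switch on Dux in mouse embryonic stem cells, were higher (0.46, adjusted p = 0.0094, and 0.47, adjusted p = 0.013). Zfp281, a repressor of the 2-cell programme, on chromosome 1, was lower (-0.50, adjusted p = 0.0024), and the insulator gene Ctcf, on chromosome 8, was higher (0.32, adjusted p = 0.018). Neither was called once the shift of its chromosome window was taken out (Zfp281 -0.15, adjusted p = 0.35; Ctcf -0.14, adjusted p = 0.29).

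Gene expression differed between the lines over whole chromosomes. Among 12016 protein-coding genes averaging at least 5 CPM, the median gene of chromosome 8 was higher in line 13 by 0.63 after doxorubicin and by 0.55 after vehicle, and 92.7% and 91.2% of its 646 genes were higher. Chromosomes 6 (0.46 and 0.38) and 2 (0.35 and 0.22) were also high, and chromosomes 3 (-0.41 and -0.40) and 1 (-0.37 and -0.35) were low, as was X (-0.19 and -0.20). Each of these values had the same sign under both treatments. Pairs of wild-type libraries differed by -0.05 to 0.05 in any chromosome median, and the Dux knockout lines by -0.02 to 0.07.

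A test over libraries, with limma on 1 median per chromosome and library, called 15 of 20 chromosomes (75%), 6 of them higher (30%) and 9 lower (45%) in line 13. Chromosome 8 led with 0.62 ± 0.03 (SE; adjusted p = 7.5e-13), which is a ratio of 1.53. Chromosome 6 came to 0.36 ± 0.03 and chromosome 2 to 0.31 ± 0.03, against -0.42 ± 0.04 for chromosome 3 and -0.38 ± 0.03 for chromosome 1 (SE). In the gene test, 572 of 916 protein-coding genes of chromosome 8 (62.4%) were higher in line 13 and 18 (1.97%) lower, while on chromosome 3 the counts were 41 higher and 277 lower (31.9%) of 868.

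Against wild-type vehicle libraries, the vehicle library of line 13 had median genes 0.45 higher on chromosome 8, 0.33 higher on 6 and 0.27 higher on 2, and at -0.32 on chromosome 1 and -0.31 on 3. The vehicle library of line 46 stood at -0.10, -0.04, 0.06, 0.04 and 0.09 on these chromosomes. Under doxorubicin line 13 stood at 0.65, 0.44, 0.46, -0.27 and -0.17 against drug-treated wild-type libraries, and line 46 at 0.08, 0.06, 0.15, 0.10 and 0.26. In that contrast both lines also stood above 0 on most other chromosomes. Lines 13 and 46 were at 0.42 and 0.32 on chromosome 11, and at 0.32 and 0.34 on 17. The 0.26 of line 46 on chromosome 3 is thus not particular to that chromosome. These are descriptions, with no test of either line against wild type. Medians over genes are relative, since each library was centred on its autosomal genes.

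**Figure D4:**
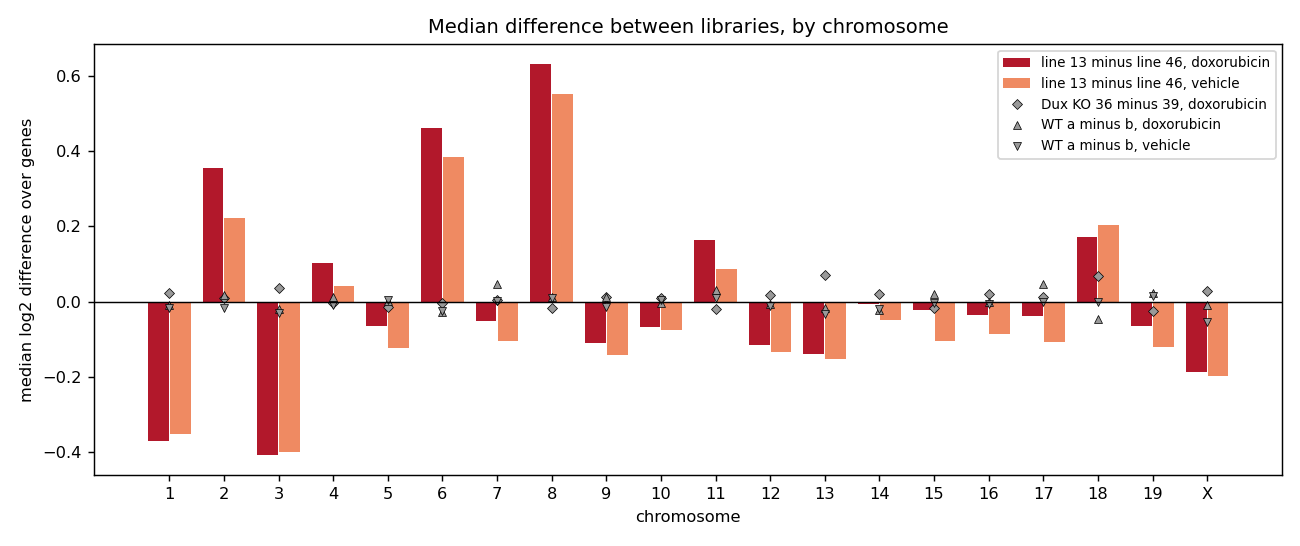
Median log2 difference over expressed protein-coding genes by chromosome: dark bars line 13 minus line 46 under doxorubicin, light bars under vehicle, and markers the Dux knockout lines (36 minus 39) and the wild-type pairs (a minus b). Chromosome 8 reaches 0.63 and chromosome 3 reaches -0.41, where all markers lie between -0.05 and 0.07.

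Windows of 50 neighbouring genes showed how far each shift extended. Of 241 windows 128 (53.1%) were called, 57 (23.7%) higher and 71 (29.5%) lower in line 13. On chromosome 8 all 13 windows were higher, on chromosome 3 all 11 were lower, on chromosome 1 it was 13 of 14 lower, on chromosome 2 it was 17 of 20 higher and on chromosome 6 it was 9 of 11 higher. These shifts thus ran along the length of those chromosomes.

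Chromosome 14 was different. Its first 6 windows had medians between -0.37 and -0.01, and the last 2 (65819038 to 75344426, and 75702350 to 118706219) were at 0.74 and 0.89 after doxorubicin and at 0.74 and 0.86 after vehicle. The change of sign falls at the window edge between the genes Pbk and Esco2, and its exact place was not sought. The chromosome median hides it: the limma value of 0.18 (adjusted p = 0.00011) became -0.00 (adjusted p = 0.95) when each gene was centred on its own mean first, a choice made after the data were seen. That centring did not lower the counts in general, as 19 chromosomes and 161 windows were then called. The end of chromosome 16 had a smaller step, over its last 2 windows (58727910 to 91926982, and 91729281 to 98082450). These were at 0.39 and 0.45 after doxorubicin and at 0.29 and 0.46 after vehicle. In no pair of wild-type libraries did a window pass 0.13 or fall under -0.14. Between the Dux knockout lines 5 windows lay outside that range. The farthest was on chromosome 10 (81357491 to 86498896) at -0.84, and the highest were at 0.26 on chromosome 2 and 0.23 on chromosome 10.

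**Figure D5:**
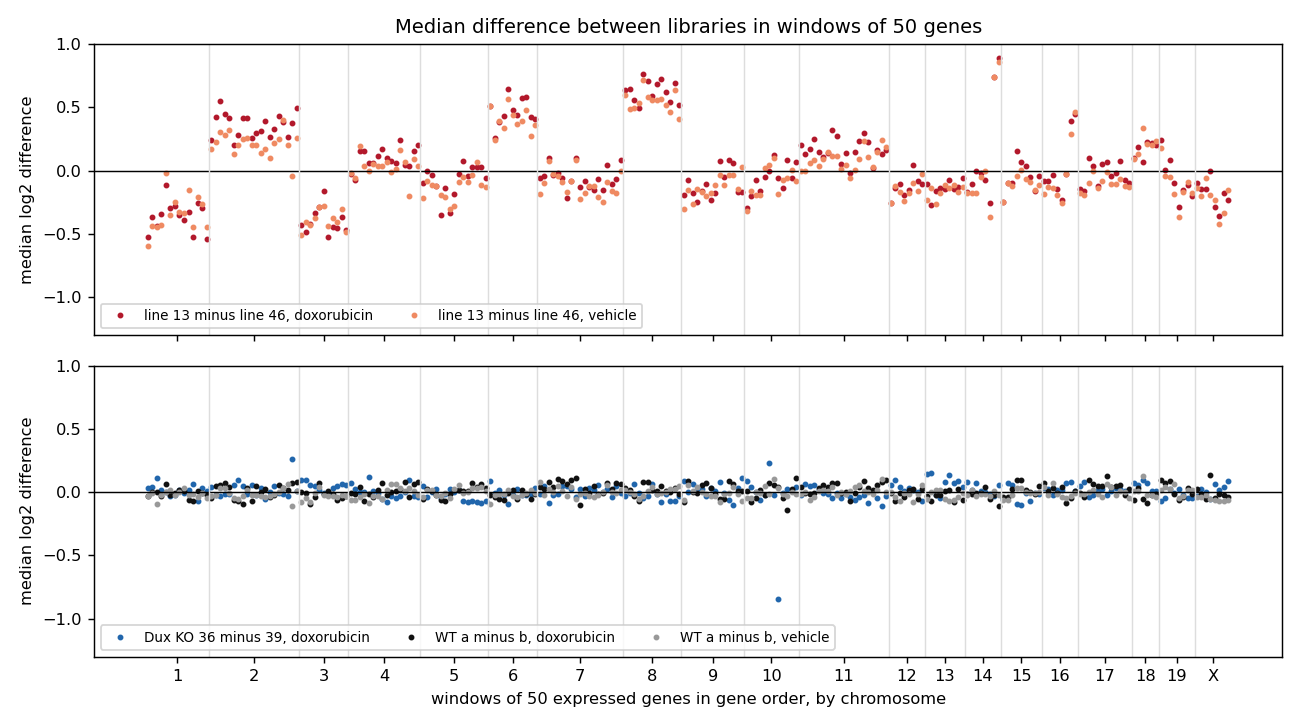
Median log2 difference in windows of 50 expressed genes in gene order along each chromosome: line 13 minus line 46 under doxorubicin and vehicle (top), and the Dux knockout lines and wild-type pairs (bottom). Whole chromosomes 1, 2, 3, 6 and 8 and the last 2 windows of chromosome 14 stand away from 0 in the top panel. A window of chromosome 10 at -0.84 is the farthest from 0 in the bottom panel.

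Gene differences were therefore also computed with the window shift of each library taken out, an alternative added after the data were seen. The calls with treatment as a block then came to 3084 higher (10.8%) and 2125 lower (7.42%). Trp53 stayed higher in line 13 (0.79, adjusted p = 0.0005). Of the p53 targets 32 were higher and none lower (Sesn1 -0.33, adjusted p = 0.088), with the median still at 0.59. Single targets moved both ways: Zmat3 and Ercc5 were then called higher, and Ckap2 and Tnfrsf10b (-0.25, adjusted p = 0.26) were not called. Of the 2-cell family genes 26 were higher and 1 lower under doxorubicin, where 8.12% and 4.24% of all genes were, and 2 were higher and 2 lower under vehicle, where 4.97% and 4.18% were. The difference of responses was then called for 3 genes higher (0.0105%) and 1 lower (0.00349%) in all, 1 of the 41 family genes among them, and Duxf3 missed the threshold (adjusted p = 0.10). Genes of the Y chromosome, which was not part of the position analysis, were few: 4 of 9 could be tested, and they summed to 0.208 and 0.292 CPM in line 13 after doxorubicin and vehicle, against 1.39 and 0.866 CPM in line 46. In wild-type cells the tested Y genes summed to 1.80 to 2.43 CPM after doxorubicin and 0.673 to 1.13 CPM after vehicle. Uty was called lower in line 13 (-2.18 ± 0.64 SE, adjusted p = 0.025) from levels of 0.139 and 0.219 CPM, against 0.999 and 0.666 CPM in line 46. That call was lost under some alternative settings.

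The largest single differences were in genes of low to moderate level. Highest in line 13 was Wnt3a, a Wnt ligand of the primitive streak, with 3.95 and 8.04 CPM in line 13 after doxorubicin and vehicle, against 0.0714 and 0.0666 CPM in line 46 (6.37 ± 0.59 SE, adjusted p = 1.8e-05). Krt17, a keratin, had 12.2 and 34.4 CPM in line 13, against 0.285 and 1.07 CPM in line 46 (5.14 ± 0.26 SE, adjusted p = 2.6e-07). Krt5, a keratin of the partner class, had 5.55 and 0.146 CPM in line 13 and rests on 2 counts in line 46. Its ratio of 84.7 has a 95% counting interval of 23.1 to 706. That interval takes counts as independent reads, which they are not, so it is too narrow. Krt5 was at 366 and 361 CPM in wild-type cells after doxorubicin. The neighbours Pramel7 and Pramel6 on chromosome 2, related to an antigen of melanoma, followed at 4.87 and 4.19. Pramel7 had 37.2 and 28.1 CPM in line 13, against 1.07 and 1.13 CPM in line 46, and 31.4 and 32 CPM in wild-type cells after doxorubicin. The rest of the 10 highest were Eda2r and Phlda3, described above, the endothelial receptor gene Tie1 (4.64), the mesothelial surface protein gene Msln (4.15) and the homeobox gene Tlx2 (4.15).

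Among the 10 genes lowest in line 13 was Ephx2, the soluble epoxide hydrolase, on the raised end of chromosome 14. It had 7.39 and 3.66 CPM in line 13 after doxorubicin and vehicle, against 115 and 83.8 CPM in line 46 and 31.6 to 37.3 CPM in wild-type cells (-4.21 ± 0.15 SE, adjusted p = 1.4e-08). Line 13 was thus below wild type and line 46 above it. Fgg, a fibrinogen chain, had 1.04 and 0.219 CPM in line 13, against 28.1 and 4.99 CPM in line 46 (-4.67 ± 0.39 SE, adjusted p = 8.2e-06). Slamf6, a lymphocyte receptor, had 2 counts in line 13. Line 46 held 61.0 times as much, with a 95% counting interval of 16.5 to 509 that is too narrow, as for Krt5. Others were Mobp (-4.39), a myelin protein, and the X-linked genes Ott (-3.73), Gm9112 (-3.53), Gm14685 (-3.50) and Gm15023 (-3.36). Slc26a9 (-3.55), an anion transporter, and Cox6a2 (-3.43), a subunit of cytochrome oxidase, completed the 10. All 20 genes stayed called with the window shift taken out, at 3.50 to 6.23 and -5.47 to -3.16. Krt5, Slamf6, Fgg, Mobp, Ott, Gm14685 and Cox6a2 overlap another annotated gene, and reads of such pairs cannot be told apart.

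Of 18 germline and meiosis genes 11 were lower in line 13 and 1 was higher (median -0.96), where 9.63% and 15.4% of all genes were. Mael, which protects germ cells against transposons, had 7.35 and 5.99 CPM in line 13, against 41.3 and 55.3 CPM in line 46 (-2.84 ± 0.19 SE, adjusted p = 1.6e-06). The meiotic cohesin genes Smc1b (-1.62) and Rec8 (-1.55) and the meiotic entry gene Stra8 (-1.42) were lower as well. The lines did not overlap in any of these 4 genes, which were named for their small adjusted p. Both line 13 libraries lay below both line 46 libraries for 15.4% of all genes. The lines came closest in Rec8, at 9.99 CPM in line 13 after doxorubicin and 10.7 CPM in line 46 after vehicle. With the window shift taken out 11 were lower and none higher, where 7.42% and 10.8% of all genes were.

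Imprinted genes went both ways, with 13 of 40 higher and 10 lower (median 0.16), where 15.4% and 9.63% of all genes were. With the window shift taken out 14 were higher and 7 lower, where 10.8% and 7.42% of all genes were. On chromosome 6 the paternally expressed neighbours Peg10 and Sgce were higher by 2.22 and 2.21. Peg10 had 100 and 142 CPM in line 13 and 29.8 and 21.9 CPM in line 46. Mest, paternally expressed on the same chromosome, was higher by 1.83, and Usp29, on chromosome 7, was lower by -1.97 and overlaps several genes.

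Of 26 naive pluripotency genes 4 were higher and 8 lower (median 0.05), or 2 and 5 with the window shift taken out. Shares over all genes, here and for the lists that follow, were 15.4% higher and 9.63% lower, and 10.8% and 7.42% with that shift taken out. Dppa3, a maternal factor that guards DNA methylation, had 6.31 and 2.27 CPM in line 13, against 26.8 and 22.7 CPM in line 46 (-2.66 ± 0.33 SE, adjusted p = 0.00013), and Nr5a2 (-0.90) and Tfcp2l1 (-0.64) were lower too. Klf5, on the raised end of chromosome 14, was higher (0.77) and came to -0.27 without the window shift. Of 12 primed genes 3 were higher and 4 lower (median 0.18), with Lefty2 up (1.11) and Otx2 (-1.48), Dnmt3a (-0.94) and Lef1 (-1.98) down.

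Markers of other cell types were mixed, and several counts are near the shares of all genes. Trophectoderm had 5 of 19 higher and 3 lower (median -0.05). Among the higher were the simple-epithelial keratins Krt8 (3.64) and Krt18 (1.54). Krt8 had 25.2 and 55.6 CPM in line 13, against 2.21 and 4.13 CPM in line 46. Tfap2c was lower (-0.49, adjusted p = 0.0054). With the window shift taken out 5 were again higher and 3 lower. Those 3 were Tfap2c (-0.67), the keratin gene Krt7 (-0.88) and Hand1 (-1.94), the last 2 named after their values were seen. Primitive endoderm had 5 of 18 higher and 3 lower (median 0.43), among them Col4a2 higher (1.50, and 0.84 without the window shift) and Lamb1 lower (-0.63). Mesoderm had 2 of 10 higher (Kdr, 2.43, and Hand2, 3.60, the second under 1 CPM throughout and not called without the window shift, adjusted p = 0.059; median 0.44). Neuroectoderm had 4 of 8 higher and 1 lower (median 0.63), or 2 and 0 without the window shift, and fibroblast genes 2 of 8 higher and 2 lower (median -0.03). Fn1 had 736 and 637 CPM in line 13, against 1420 and 1320 CPM in line 46 (adjusted p = 3.7e-05).

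Of 23 genes of G2 and mitosis 10 were higher in line 13 and 1 was lower (median 0.26), or 7 and 0 without the window shift, among them the kinase gene Aurka (0.64) and Ube2c (0.72). G1/S and replication genes had 7 of 24 higher and 3 lower (median 0.04), or 2 and 1 without the window shift. Of the MCM helicase genes, Mcm5 on chromosome 8 was higher (0.59) and Mcm6 on chromosome 1 lower (-0.54), and neither was called without the window shift (-0.086, adjusted p = 0.64, and -0.29, adjusted p = 0.11). DNA repair genes had 4 of 23 higher and 4 lower (median -0.10), or 0 and 1 without the window shift. Atm was lower (-0.50, and -0.32 without that shift), and Rad52 was higher (0.62) but not called without it (0.10, adjusted p = 0.67). Stress genes had 8 of 17 higher and none lower (median 0.21), or 5 and 0 without the window shift, such as the heat shock gene Hspa1a (1.36). Interferon response genes had 4 of 19 higher and none lower (median 0.65), or 2 and 0 without the window shift, led by Bst2 (1.99, and 1.34 without it), which had 13.2 and 16.0 CPM in line 13, against 3.64 and 3.66 CPM in line 46.

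Apoptosis genes outside the p53 list had 5 of 18 higher and 4 lower (median -0.07), but 1 and 1 without the window shift. Ribosome biogenesis genes had 7 of 20 higher and 2 lower (median 0.05), but 1 and 2 without it. Replication-dependent histone genes, whose RNA mostly lacks a poly(A) tail, had 3 of 20 higher and none lower (median 0.65), a share near that of all genes. No gene of the X inactivation centre was called among 6 tested, and none of the 13 genes encoded in the mitochondrion could be tested, as all were at 0 counts.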

How the data were processed

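The authors deposited whole-number counts per Ensembl gene and FPKM values for the same libraries. TopHat2, DESeq, DESeq2 and build mm10 are named in the submitters' processing notes, without versions; the counter and the strand setting are not given in the sources used here. The length that relates deposited counts to FPKM was the gene span, introns included, within 1% for 98.3% of 9425 genes, which does not show where the reads were counted. Of counts of at least 500, 26.4% to 33.4% per library were odd numbers, so counts are not independent reads, and counting intervals and floors cover counting error only. The 6 columns of group averages were not used. Of 54532 gene IDs, 54409 matched GENCODE M21, which gave names and positions.

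The gene test was edgeR's quasi-likelihood test (edgeR 4.0.16 under R 4.3.3) after filterByExpr with minimum count 10 and TMM factors, with Benjamini-Hochberg adjustment over 28643 genes and threshold 0.05. Line contrasts had treatment as a block, and single-library contrasts took their spread from the wild-type pairs, assuming each lone library varies like them. Dux knockout lines had their own line term. Chromosomes and windows were tested with limma 3.58.1 on library medians. Alternatives were RLE scaling, no filter, DESeq2 1.42.0, limma on the deposited FPKM (log2 with pseudocount 1 or 0.1), other fits and each library left out. Tests ran on simulated counts first. Named genes were Trp53, Duxf3, the 10 protein-coding genes highest and the 10 lowest in the line contrast and up to 8 each way in the difference of responses (all called, with a mean of at least 1 CPM, and for the line contrast the same direction under both treatments), up to 4 called members of each list with the smallest adjusted p, and any p53 target or 2-cell gene. The members and the 25 lists were chosen with earlier results of these data known. The grouping of p53 targets by role was made after values were seen. Promoter motifs were searched in 12 forms, all given, with those shown chosen after the matches were seen.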

Additional observations from a re-analysis of the deposited data

Results flagged for a closer look

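The doxorubicin response differed between the lines by edgeR's test of the difference (adjusted p under 0.05) for 14 of the genes named by the rule, given here as line 13 minus line 46 on the log2 scale. It was higher in line 13 for Duxf3 (9.51, adjusted p = 0.039), Grm8 (8.49, adjusted p = 0.035), Gm47995 (4.87, adjusted p = 0.041), Gm13119 (3.93, adjusted p = 0.02), Usp17lb (3.61, adjusted p = 0.026), Fbp2 (3.55, adjusted p = 0.02), Usp17la (3.37, adjusted p = 0.02) and Tmem92 (3.07, adjusted p = 0.02). The fitted sizes for Duxf3 and Grm8 depend on the prior count, because line 13 after vehicle is at 0, and with a floor of 3 counts they were 4.56 and 3.54. Gm13119 had 13.5 and 1.35 CPM in line 13 after doxorubicin and vehicle, against 0.607 and 0.932 CPM in line 46. Fbp2, the muscle fructose bisphosphatase, had 4.09 and 0.512 CPM in line 13, against 2.21 and 3.26 CPM in line 46.

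It was lower in line 13 for Casq2 (-3.71, adjusted p = 0.028), Fosl2 (-2.89, adjusted p = 0.028), Col4a1 (-1.72, adjusted p = 0.02), Lama5 (-1.31, adjusted p = 0.024), Pcyt1b (-1.22, adjusted p = 0.029) and Gse1 (-1.11, adjusted p = 0.028). Fosl2, an AP-1 subunit, had 4.65 and 7.82 CPM in line 13 after doxorubicin and vehicle, against 5.57 and 1.27 CPM in line 46. Each of the 4 conditions behind these values is 1 library. Casq2, Col4a1, Lama5, Gse1 and Grm8 overlap another annotated gene.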

How the results depend on the processing

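No paired analysis was possible because the replicate number of a p53 knockout library is its line, which is the contrast itself, and wild-type columns carry no number. Trp53 stayed higher in line 13, with adjusted p under 0.05, in all alternatives (0.77 to 1.16). Of 2275 recomputed values of named genes 1872 kept their call and direction, 398 kept direction only and 5 reversed, all with the window shift removed: Ctcf (-0.14), Klf5 (-0.27), Mcm5 (-0.086), Fanca (-0.15) and Hmox1 (-0.23). Counts of called genes moved more. With treatment as a block the 7176 became 633 without the block and 1870, 1795 and 1743 with limma on FPKM (pseudocount 1, pseudocount 0.1, and 1 with no filter). In the same order of FPKM settings, the 5560 under doxorubicin became 419, 396 and 3467, the 4407 under vehicle 172, 208 and 572, the 51 differences of responses 7, 10 and 1449, and the 112 of the Dux knockout lines 0, 0 and 64. With no low-count filter these 4 counts were 3548, 2568, 0 and 0. With DESeq2 the doxorubicin, vehicle and response counts were 3540, 2799 and 105, and with the window shift removed 3541, 2619 and 4. Treating Dux knockout lines as replicates gave 13 response differences. Windows called were 73 of 100 genes and 207 of 25 genes.

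The Duxf3 response difference kept its direction but lost its call with no filter (9.50, adjusted p = 0.45), Dux knockout lines as replicates (9.51, adjusted p = 0.075), the window shift removed (9.66, adjusted p = 0.10) and limma on FPKM with pseudocounts 1 (1.23, adjusted p = 0.089) and 0.1 (3.47, adjusted p = 0.10). Leaving out each library gave 4370 to 7331 genes for the line contrast, 4526 to 6412 under doxorubicin, 3373 to 5205 under vehicle, 0 to 143 for the responses, 26 to 246 for the Dux knockout lines, 12 to 16 chromosomes, 106 to 136 windows, and 9.43 to 9.55 for Duxf3. Beside those counts of 0, the edgeR test as reported had 2799 response differences and 2245 Dux knockout differences at an unadjusted p under 0.05. The causes were not tested. Depth limits genes under about 1 CPM, where 1 library rests on few counts.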
